A study of Mus musculus with 53 samples.

Results

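Glp1r, the gene of the receptor for glucagon-like peptide 1 (GLP-1), was followed over 49 sequencing libraries from 2 hypothalamic nuclei of mice, as 1 gene among 53379 Ensembl gene identifiers. It was chosen by its levels in the paraventricular nucleus (PVN) of chow-fed males, which were high in obese Nnat+/-p against Nnat+/+ mice. The chow-fed male PVN values are therefore given below as a description, with no test. The gene was found by its identifier, ENSMUSG00000024027, and was counted in every one of the 49 libraries, with 1 to 1362 counts.

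GLP-1 is made from proglucagon in the gut and in a small group of hindbrain neurons that project to the hypothalamus. Its receptor belongs to the class B1 family of G-protein-coupled receptors, couples to the stimulatory G protein, and raises cyclic AMP. In the PVN and the arcuate nucleus (ARC) the receptor is known as a target through which GLP-1 and its agonist drugs reduce food intake.

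All mice were adult C57BL/6, and the labels' protocol gives an age of 13 to 14 weeks. Nnat+/-p mice inherited a null allele of the imprinted gene Nnat from the father, carried the deletion in every tissue, and were compared with Nnat+/+ littermates. On chow, Nnat+/-p males were divided by their labelled weight into obese (above 37 g) and non-obese (below 35 g) mice, and females into obese (above 30 g) and non-obese (below 25 g) mice. In the male PVN there were, on chow, 3 libraries of Nnat+/+, 3 of non-obese and 4 of obese Nnat+/-p mice, and 6 Nnat+/+ and 3 Nnat+/-p libraries on a 45% high-fat diet (HFD). In the female PVN, all on chow, there were 4 Nnat+/+, 3 non-obese and 3 obese Nnat+/-p libraries. In the male ARC there were 2 Nnat+/+, 4 non-obese and 4 obese Nnat+/-p libraries on chow, and 6 Nnat+/+ and 4 Nnat+/-p libraries on HFD. The nuclei were cut by laser from stained sections, so each library holds neurons, glia and vessels together. Libraries are named by the replicate number of their label.

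Total counts per library lay between 1479953 and 30228973. Levels are given in CPM, the per-million share of a gene in the counts of its library. Nnat was at most 13.7 CPM in each Nnat+/-p library and at least 224 CPM in each Nnat+/+ library. Of the male PVN libraries, 2 stood apart in the genes that define the nucleus. The chow-fed Nnat+/+ library 15 had 0.489 CPM of Sim1, the transcription factor of PVN neurons, 0.163 CPM of Avp (vasopressin) and 0.489 CPM of Oxt (oxytocin). The HFD-fed Nnat+/+ library 24 had 15.9, 0.896 and 1.25 CPM of the same genes in that order. In the other 17 male PVN libraries Sim1 lay between 40.6 and 206 CPM, Avp between 66.1 and 507 CPM and Oxt between 194 and 1360 CPM.

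Glp1r lies on chromosome 17 of GRCm38 from 30901817 to 30940791, on the plus strand, and its 2 annotated transcripts have 13 and 14 exons. The exons of both transcripts cover 5811 bases. In the annotation used here, GENCODE M21, 2 genes on the minus strand overlap it. The library kit keeps strand, but whether the counting used it is not given in the sources used here, so reads from the opposite strand cannot be told apart from those of Glp1r. The stretch that ends at the base before the annotated gene is shown because it is the flank from which the gene is read, at chr17:30901617-30901816 (RefSeq, GRCm38.p6, plus strand). Capitals mark the letters GGGCGG, the core of the GC box to which Sp1-like factors bind, on either strand.
Glp1r promoter: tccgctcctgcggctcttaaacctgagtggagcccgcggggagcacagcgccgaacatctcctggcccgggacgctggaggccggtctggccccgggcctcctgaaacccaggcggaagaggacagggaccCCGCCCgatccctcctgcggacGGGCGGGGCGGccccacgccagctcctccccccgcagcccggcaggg
GC bases made up 75.0% of these 200 bases, more than in 96.1% of the 32851 promoter stretches of the same length in the table, whose median was 51.5%. GGGCGG occurred at 3 sites, of which 2 share 1 base, and 24.6% of all promoter stretches held it at least once. TGACG, a part of the cyclic AMP response element (12.7% of all), and the TATA box letters TATAAA (9.14% of all) were not found on either strand. Each stretch, here and among all promoters, ends short of the RefSeq start and leaves out the bases next to it. The absence of TATAAA therefore says nothing about a TATA box closer to that start. These counts describe letters in 1 window only.

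In the PVN of chow-fed males, Glp1r was lowest in Nnat+/+ mice, higher in non-obese Nnat+/-p mice and highest in obese Nnat+/-p mice. In Nnat+/+ mice it was 1.88 CPM in library 13, 0.218 CPM in library 14 and 1.95 CPM in library 15. These rest on 6, 1 and 12 counts, and the exact Poisson 95% interval of the 1 count in library 14 runs from 0.00552 to 1.21 CPM. Such intervals cover counting error only. In non-obese Nnat+/-p mice it was 10.0, 7.05 and 8.98 CPM in libraries 18, 19 and 22. In obese Nnat+/-p mice it was 29.5, 20.4, 12.9 and 17.8 CPM in libraries 16, 17, 20 and 21. No value of one subgroup reached into the next. Each of the 3 Nnat+/+ values was below each non-obese value, and each non-obese value was below each obese value. These libraries chose the gene, and the share of all genes that separate in this way was not computed. Nothing is read from the separation. The means were 1.35 ± 0.982 CPM (SD, n = 3), 8.68 ± 1.50 CPM (SD, n = 3) and 20.2 ± 6.94 CPM (SD, n = 4). In the edgeR fit the log2 fold change was 3.92 (SE 0.68) for obese Nnat+/-p against Nnat+/+, 2.68 (SE 0.68) for non-obese Nnat+/-p against Nnat+/+, and 1.24 (SE 0.58) for obese against non-obese Nnat+/-p mice. Without library 15 the Nnat+/+ mean was 1.05 CPM over 2 libraries, and the first of these fold changes was 4.58. In nuclei cut whole, fewer cells with the receptor and less RNA of it per cell cannot be told apart.

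**Figure D1:**
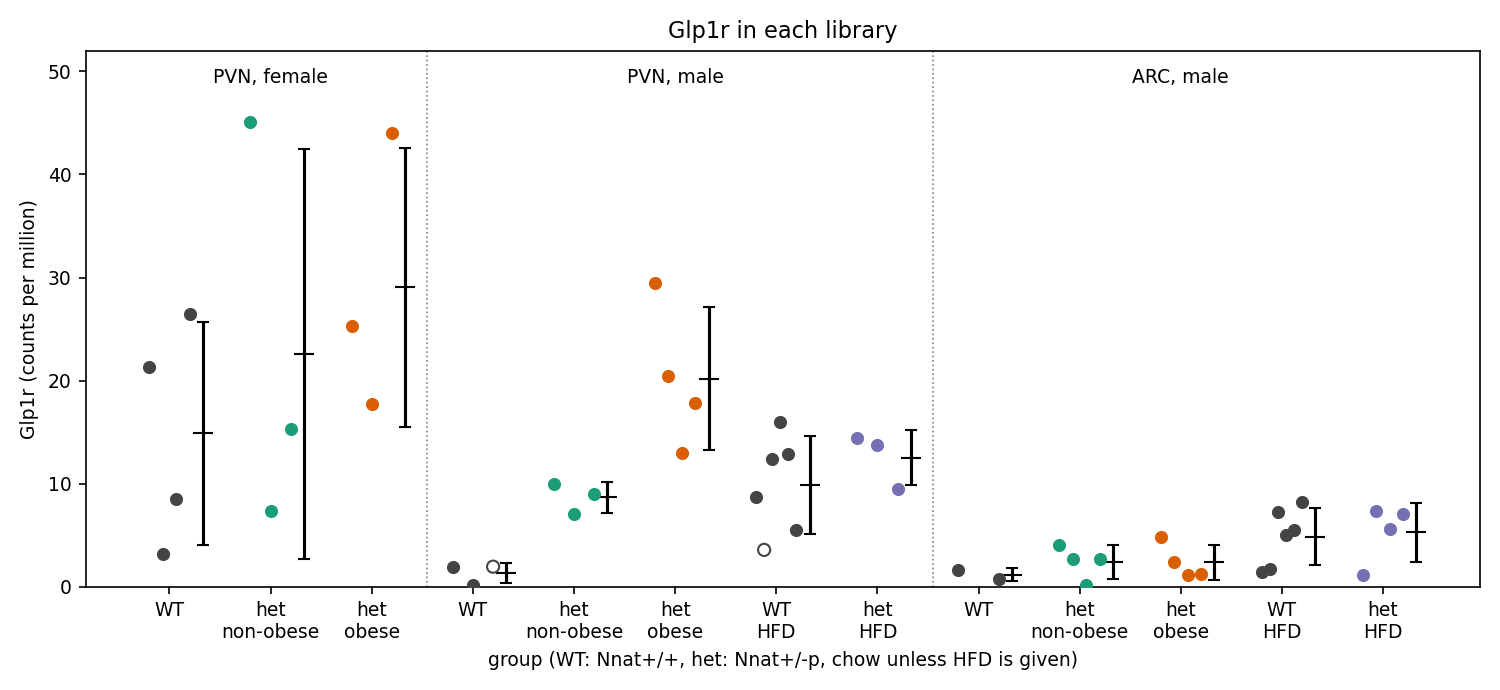
Glp1r in CPM (vertical axis) in each of the 49 libraries, by sex, nucleus, diet and genotype. Points are libraries, open points are libraries 15 and 24 with low PVN markers, and bars show the mean and SD of each group. The male PVN rises from 1.35 CPM in chow-fed Nnat+/+ to 20.2 CPM in chow-fed obese Nnat+/-p mice, while no ARC library is above 8.19 CPM.

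The markers of the PVN and of its surroundings were measured in the same libraries. The 8 PVN neuron markers summed to 2108, 1553 and 123 CPM in Nnat+/+ libraries 13, 14 and 15, to 782 to 1949 CPM in non-obese and to 934 to 1834 CPM in obese Nnat+/-p libraries. In this sum library 13 lay above and library 14 within the range of the Nnat+/-p libraries, and their Glp1r was 1.88 and 0.218 CPM. The 5 forebrain excitatory neuron markers ran from 181 to 615 CPM in Nnat+/+, from 119 to 257 CPM in non-obese and from 113 to 251 CPM in obese libraries. Of these, Nrgn was called lower by edgeR in both obese and non-obese Nnat+/-p against Nnat+/+ mice, where 0.0256% and 0.0128% of all genes were called. The 4 ventromedial hypothalamus markers ran from 14.2 to 167 CPM, from 4.55 to 37.5 CPM and from 4.69 to 27.3 CPM in the same order. The sums of the 3 lateral hypothalamus markers were 17.9 to 22.3 CPM in Nnat+/+, 1.62 to 16.8 CPM in non-obese and 1.39 to 11.1 CPM in obese libraries. The lowest Nnat+/+ sum was thus narrowly above the highest Nnat+/-p sum. The 4 suprachiasmatic nucleus markers ran from 7.85 to 19.1 CPM, from 2.51 to 9.26 CPM and from 2.46 to 7.76 CPM, so the Nnat+/+ libraries were above all obese ones. In the Nnat+/+ libraries 0 to 2 of the forebrain genes, 0 or 1 of the lateral hypothalamus and suprachiasmatic genes, and 0 of the PVN and ventromedial genes were at 0. The sums of the thalamus, ARC neuron, astrocyte, oligodendrocyte, microglia, vascular and ependymal lists overlapped between the genotypes. The part of neighbouring tissue in the Glp1r values was not tested.

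Labelled weight and Glp1r did not run in one line within the chow-fed Nnat+/-p males. Among the obese mice, Glp1r was 29.5 CPM at 38.8 g, 17.8 CPM at 41.17 g, 12.9 CPM at 41.66 g and 20.4 CPM at 46.5 g, so the lightest obese mouse had the highest level. Among the non-obese mice it was 8.98 CPM at 27.4 g, 10.0 CPM at 33.6 g and 7.05 CPM at 34.3 g. The weights fall into 2 separate ranges with 3 and 4 mice, too few within either for a correlation, and none was computed over both. The difference between the ranges is the one between the obese and non-obese subgroups given above. The Nnat+/+ mice, at 31.4 to 33.5 g, were lighter than the 2 heaviest non-obese Nnat+/-p mice and heavier than the lightest, and their Glp1r lay below that of all 3.

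**Figure D2:**
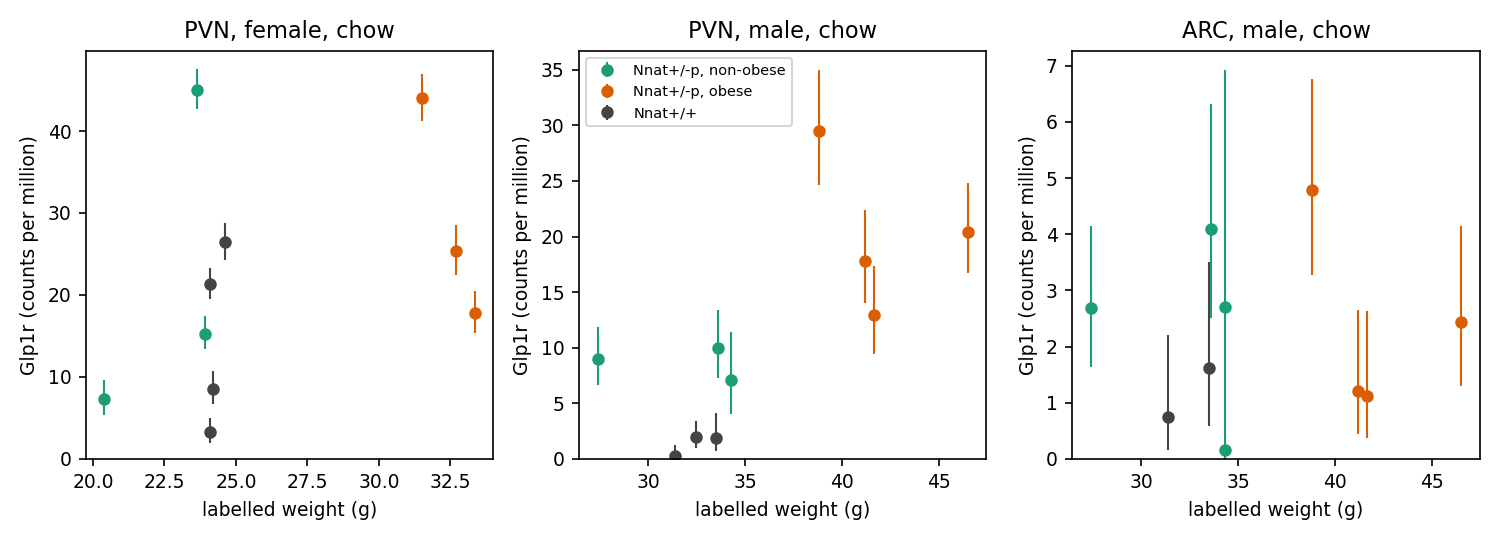
Glp1r in CPM (vertical axis) against labelled body weight in g (horizontal axis) for chow-fed mice, in the female PVN, the male PVN and the male ARC. Points are libraries with exact Poisson 95% intervals, and each panel has its own scale. In the male PVN the obese mice sit between 12.9 and 29.5 CPM and the non-obese mice between 7.05 and 10.0 CPM, while in the females the highest value, 45.1 CPM, belongs to a non-obese mouse of 23.63 g.

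The chow-fed females, whose libraries lie in a table of their own, did not take part in the choice of the gene. In Nnat+/+ females Glp1r was 21.3, 3.22, 8.55 and 26.5 CPM in libraries 1 to 4. In non-obese Nnat+/-p females it was 45.1, 7.31 and 15.3 CPM in libraries 9, 10 and 11, and in obese Nnat+/-p females 25.3, 17.8 and 44.0 CPM in libraries 6, 8 and 12. The 3 subgroups overlapped: only 1 obese library was above every Nnat+/+ library, and the 2 highest values of all came from a non-obese and an obese mouse. With edgeR's quasi-likelihood test and Benjamini-Hochberg adjustment over all genes, obese Nnat+/-p and Nnat+/+ females differed by a log2 fold change of 0.96 (SE 0.71, 95% interval -0.55 to 2.46, adjusted p = 0.9997). For non-obese Nnat+/-p against Nnat+/+ it was 0.54 (SE 0.71, interval -0.96 to 2.05), and for obese against non-obese 0.42 (SE 0.77, interval -1.20 to 2.04), with adjusted p of 0.9999 and 1. At an adjusted p under 0.25, the threshold used throughout, edgeR called 0.0129%, 0.00646% and 0% of the 15485 genes tested in these 3 comparisons. In the last of them, with 0 genes called, 474 genes had an unadjusted p under 0.05 and DESeq2 called 71 genes. P-values here measure only the spread between these libraries, since the labels do not number the mice.

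Depth moved with Glp1r in the females. The 4 deepest libraries, with 21002007 to 30228973 counts, had 21.3 to 45.1 CPM, and the other 6, with 6219365 to 14522714 counts, had 3.22 to 25.3 CPM. The deep libraries were of 2 Nnat+/+, 1 non-obese and 1 obese Nnat+/-p female. They also had the highest sums of the 8 PVN neuron markers, 3610 to 5327 CPM, against 1685 to 2998 CPM in the other 6. Depth and the PVN content of a library therefore cannot be told apart here, and the part of either in the Glp1r values was not tested. With the log2 library total as a covariate, the obese against Nnat+/+ change was 1.08 (SE 0.54), with an adjusted p of 0.9998 by edgeR. The change of obese against Nnat+/+ that was described in males, 3.92, lies above the upper end of the female interval, 2.46. That difference between the sexes was not tested, since the male value chose the gene and the sexes were counted in separate tables.

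On HFD, the genotypes overlapped in Glp1r in the male PVN. In Nnat+/+ mice it was 8.76, 3.58, 12.4, 16.0, 12.9 and 5.56 CPM in libraries 23 to 28, with a median of 10.6 CPM. In Nnat+/-p mice it was 14.4, 13.7 and 9.45 CPM in libraries 29, 30 and 31, all within the range of the Nnat+/+ libraries. The log2 fold change of Nnat+/-p against Nnat+/+ was 0.38 (SE 0.42, 95% interval -0.47 to 1.23, adjusted p = 1 by edgeR). In that comparison edgeR called 0.00569% of 17576 genes. The lowest value, in library 24, came with the low PVN markers given above, and without it the change was 0.21.

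All 6 HFD-fed Nnat+/+ libraries were above all 3 chow-fed Nnat+/+ libraries in the male PVN, at 9.86 ± 4.74 CPM (SD, n = 6) against 1.35 ± 0.982 CPM (SD, n = 3). The log2 fold change was 2.88 (SE 0.54), given without a test because the chow-fed libraries are those against which the gene was chosen. The share of all genes whose libraries separate by diet in this way was not computed, and nothing is read from the separation. In this comparison 1.43% of the 17576 genes tested were called and 0.313% were called higher on HFD, and nothing is read from that share for Glp1r. The fold change was 3.72 without libraries 15 and 24. Markers of neighbouring tissue moved in the same comparison. The ventromedial markers Nr5a1 and Fezf1, the forebrain markers Nrgn and Slc17a7, and Pomc of the ARC were called lower on HFD by edgeR. The summed ventromedial markers ran from 3.74 to 29.7 CPM on HFD and from 14.2 to 167 CPM on chow, and the forebrain markers from 138 to 236 CPM and from 181 to 615 CPM. The suprachiasmatic markers summed to 1.83 to 7.67 CPM on HFD and to 7.85 to 19.1 CPM on chow, without overlap, and the lateral hypothalamus markers, at 1.31 to 38.9 CPM and 17.9 to 22.3 CPM, overlapped. Their part in the Glp1r values was not tested. The HFD-fed Nnat+/+ mice weighed 37.4 to 42.9 g, a range that meets that of the chow-fed obese Nnat+/-p mice, 38.8 to 46.5 g. Their Glp1r, 3.58 to 16.0 CPM, overlapped that of the chow-fed obese Nnat+/-p mice, 12.9 to 29.5 CPM. Within the HFD-fed Nnat+/+ mice Glp1r was 5.56 CPM at 37.4 g, 16.0 CPM at 40.7 g and 12.9 CPM at 41.3 g. It was 8.76 CPM at 41.4 g, 12.4 CPM at 42.2 g and 3.58 CPM at 42.9 g. The lowest values thus belonged to the lightest and the heaviest mouse. The heaviest is that of library 24, which had low PVN markers and shares its labelled weight with an ARC library of the other genotype. Whether the chow-fed and HFD-fed brains were processed together is not given in the sources used here, and a batch cannot be told apart from diet.

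**Figure D3:**
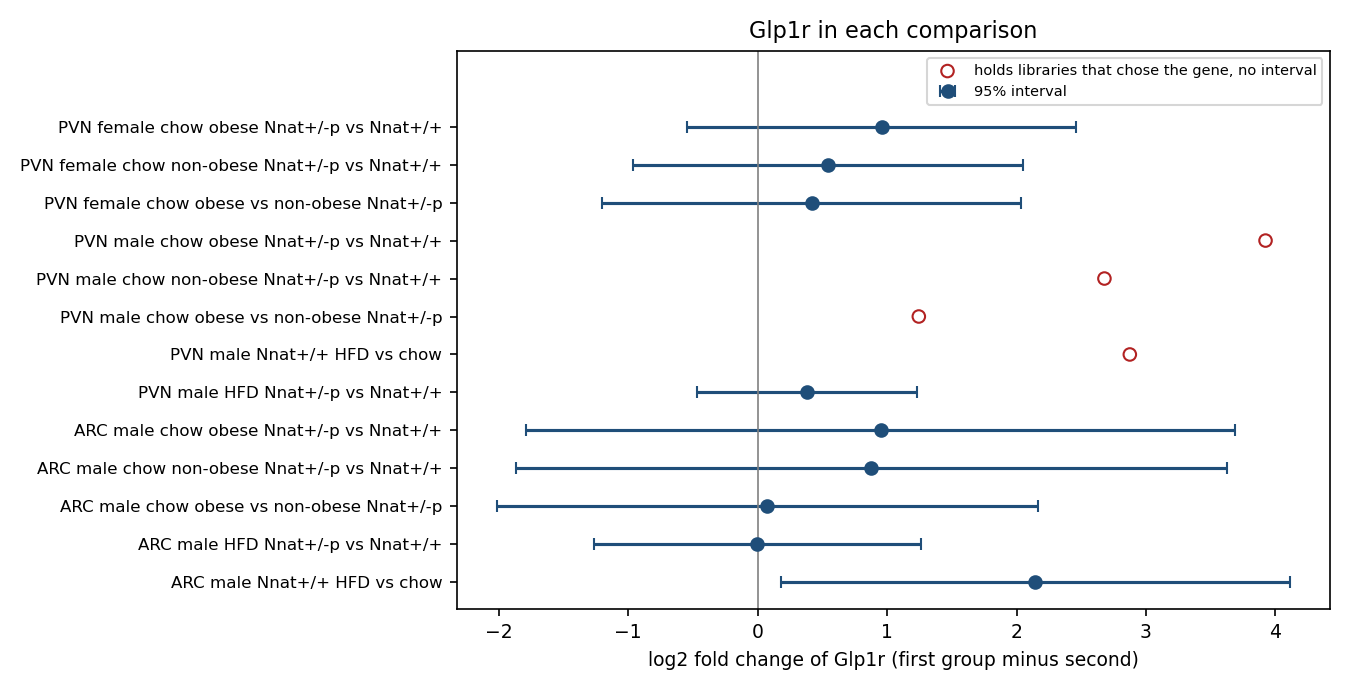
Log2 fold change of Glp1r (horizontal axis, first group minus second) in each of the 13 comparisons (vertical axis). Filled points carry the 95% interval of the edgeR fit, and open points, without an interval, are comparisons that hold the libraries against which the gene was chosen. The intervals all include 0 except that of HFD against chow in the Nnat+/+ ARC, 0.18 to 4.11.

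In the ARC, Glp1r was lower than in most PVN libraries, with a median of 2.69 CPM over 20 libraries against 10.0 CPM over 19 male PVN libraries. The nuclei were counted in separate tables, so a difference between nuclei cannot be told apart from one between tables. The labelled weights, genotypes and diets match 15 PVN libraries to 1 ARC library each, which may be of the same mouse. Glp1r was higher in the PVN in 13 of these 15 pairs, with a median ratio of 3.20 and a range from 0.289 to 14.7. Among the chow-fed obese mice the ratios were 6.15, 8.41, 11.5 and 14.7. In the chow-fed Nnat+/+ mice the nuclei were near each other, at 1.88 CPM in the PVN and 1.61 CPM in the ARC of the mouse of 33.5 g and at 0.218 and 0.753 CPM in that of 31.4 g. The other exception was the HFD-fed Nnat+/+ mouse of 37.4 g, with 5.56 CPM in the PVN and 8.19 CPM in the ARC. The PVN markers summed to 102 to 211 CPM over the ARC libraries, and to 703 CPM or more in the male PVN libraries other than 15 and 24. The 7 ARC neuron markers summed to 47.5 to 671 CPM in the ARC and to 12.8 to 205 CPM in the male PVN.

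By genotype, no difference in the ARC passed the test. On chow, Glp1r was 1.61 and 0.753 CPM in the Nnat+/+ libraries 33 and 34, 4.09, 2.70, 0.158 and 2.68 CPM in the non-obese Nnat+/-p libraries 38, 39, 40 and 43, and 4.79, 2.43, 1.12 and 1.22 CPM in the obese Nnat+/-p libraries 36, 37, 41 and 42. Libraries 39 and 40 carry 1 labelled weight, which 1 PVN library shares, so they may come from 1 mouse, and with their counts summed the fold changes below were 0.95, 0.94 and 0.02. Counts were low here, 1 to 32 per library, and the single count of library 40 allows 0.00399 to 0.878 CPM. The 3 subgroups overlapped. The log2 fold change was 0.95 (SE 1.33, 95% interval -1.79 to 3.69) for obese and 0.88 (SE 1.33, interval -1.87 to 3.63) for non-obese Nnat+/-p against Nnat+/+, with adjusted p of 1 and 0.9999 by edgeR. Obese and non-obese Nnat+/-p mice differed by 0.07 (SE 1.01, interval -2.02 to 2.16) in the fit, while their unscaled means, 2.39 and 2.41 CPM, lay the other way round. In the 3 comparisons edgeR called 0.0205%, 0.0136% and 0.00682% of 14658 genes. The width of the intervals means that changes of several-fold in either direction were not detectable at this depth and number of mice.

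On HFD, Glp1r in the ARC was 1.39, 1.77, 7.21, 5.00, 5.54 and 8.19 CPM in the Nnat+/+ libraries 44 to 49 and 1.17, 7.40, 5.58 and 7.06 CPM in the Nnat+/-p libraries 50 to 53. Both groups held libraries near 1 CPM and libraries above 7 CPM. The log2 fold change between them was -0.00 (SE 0.62, 95% interval -1.26 to 1.26, adjusted p = 1 by edgeR), and 0.0127% of 15753 genes were called. The genotype difference on HFD minus that on chow was -0.92 on the log2 scale, with an adjusted p of 0.9999 by edgeR, so the interaction was not detected.

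Between diets, Glp1r in the Nnat+/+ ARC was 4.85 ± 2.78 CPM (SD, n = 6) on HFD and 1.18 ± 0.609 CPM (SD, n = 2) on chow, and 5 of the 6 HFD libraries were above both chow libraries. The log2 fold change was 2.15 (SE 0.96, 95% interval 0.18 to 4.11), with an unadjusted p of 0.0336 and an adjusted p of 0.526 by edgeR, while 1.16% of 15753 genes were called. Over the alternatives run, the adjusted p lay between 0.249, with only these groups in the fit, and 0.990, without library 33. The 4 ventromedial hypothalamus markers summed to 75.6 and 135 CPM in the chow libraries and to 9.12 to 49.1 CPM in the HFD libraries, and the 7 ARC neuron markers to 89.3 and 90.6 CPM and to 109 to 671 CPM. The 3 lateral hypothalamus markers summed to 31.9 and 103 CPM on chow and to 0.277 to 30.7 CPM on HFD, and the 5 ependymal markers to 3.77 and 10.3 CPM and to 10.9 to 30.2 CPM. The sums of these 4 lists did not overlap between the diets. By edgeR, Mobp and Mbp among the oligodendrocyte markers and Fezf1 and Nptx2 of the ventromedial list were called lower on HFD, and Tbx3 (ARC), Gfap (astrocytes) and Col23a1 (ependyma) higher. Their part in the Glp1r values was not tested.

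Ordered by mean, Glp1r was 29.0 CPM in obese Nnat+/-p females, 22.6 CPM in non-obese Nnat+/-p females, 20.2 CPM in obese Nnat+/-p males on chow and 14.9 CPM in Nnat+/+ females, all in the PVN. The HFD-fed male PVN followed with 12.5 CPM in Nnat+/-p and 9.86 CPM in Nnat+/+ mice, and then the chow-fed non-obese Nnat+/-p males with 8.68 CPM. The ARC groups came next, with 5.30 CPM in Nnat+/-p and 4.85 CPM in Nnat+/+ mice on HFD and with 2.41 and 2.39 CPM in non-obese and obese Nnat+/-p mice on chow. The chow-fed Nnat+/+ males were last in both nuclei, at 1.35 CPM in the PVN and 1.18 CPM in the ARC. Every group overlapped the next in this order.

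Among the class B1 receptors, compared per kb of exon, Glp1r took a middle place. In the male PVN its median was 1.72 CPM per kb, with 4 of the 15 genes above it. Adcyap1r1, the PACAP receptor, came first at 27.5 CPM per kb, before Calcr, the calcitonin receptor, at 9.44 CPM per kb. Calcrl, the receptor of CGRP and adrenomedullin, and Pth1r, the parathyroid hormone receptor, were at 2.51 and 1.80 CPM per kb. Gipr, the receptor of the other incretin, was at 0.235 CPM per kb, Glp2r at 0.0560 CPM per kb, and Gcgr, the glucagon receptor, at a median of 0. In the female PVN Glp1r had a median of 3.37 CPM per kb, with only Adcyap1r1 and Calcr above it. In the ARC its median was 0.463 CPM per kb.

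**Figure D4:**
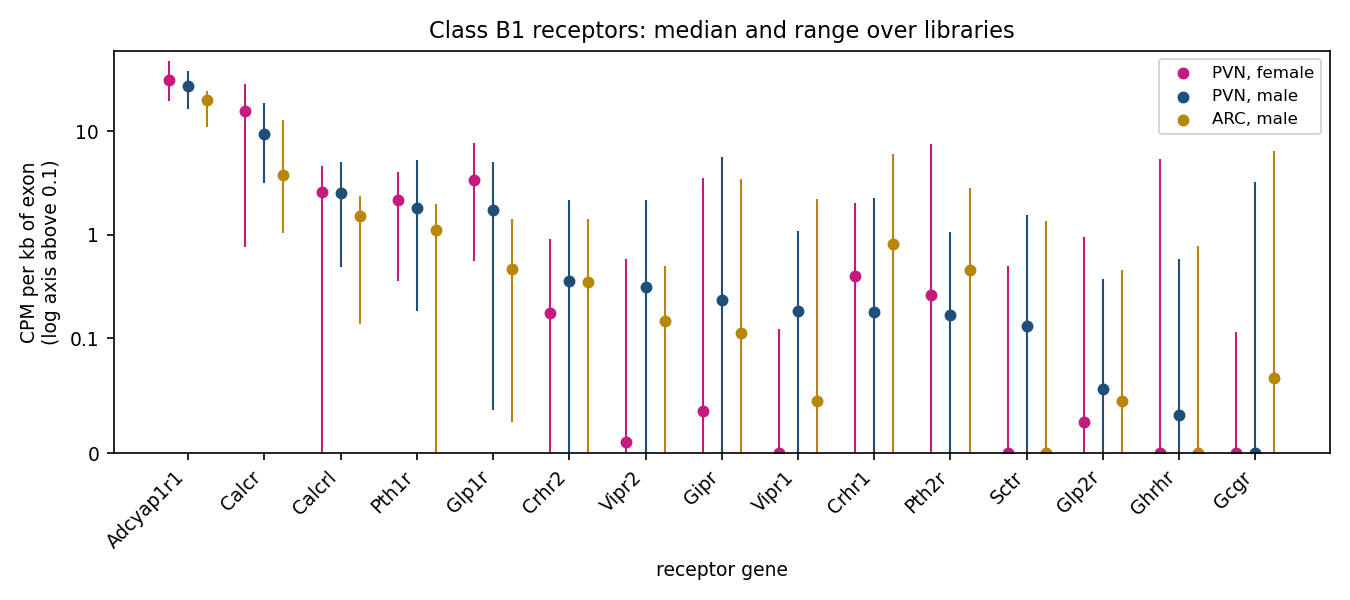
Level of 15 class B1 receptor genes (horizontal axis) in CPM per kb of exon (vertical axis, log scale above 0.1 and linear below), as the median (point) and range (line) over the libraries of each table. Glp1r has medians of 3.37, 1.72 and 0.463 CPM per kb in the female PVN, the male PVN and the male ARC.

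Of the genes around the receptor, Gcg, which encodes the GLP-1 precursor, was at 0 counts in 10 of 10 female PVN libraries, 12 of 19 male PVN libraries and 19 of 20 ARC libraries. Gip, the other incretin hormone, was at 0 counts in 10, 15 and 18 libraries of the same tables. Dpp4 and Mme, peptidases that cleave GLP-1, had medians of 0.0776 and 0.122 CPM per kb in the male PVN. Pcsk1, the prohormone convertase that releases GLP-1 from its precursor and also cleaves many hypothalamic prohormones, was at 17.5 CPM per kb there, the highest of the incretin genes.

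In each of the 13 comparisons, edgeR called no more than 1 gene of each list around the receptor. Of the 8 incretin genes other than Glp1r (4 or 5 tested, by comparison), Pcsk1 was called in HFD against chow in the Nnat+/+ ARC, with a log2 fold change of 0.76 (SE 0.22, adjusted p = 0.225 by edgeR), where 0.495% of genes were called higher and 0.66% lower. Of 22 genes of cyclic AMP signalling, all tested, Adcy5, an adenylyl cyclase, fell by 0.76 on the log2 scale in the same comparison (SE 0.22, adjusted p = 0.2252 by edgeR). Over 16 alternatives, Pcsk1 was no longer called in 9 and Adcy5 in 8. Both calls were lost without library 33, 34, 44, 46 or 49, with all labelled libraries, without the libraries of conflicting weights and at an adjusted p under 0.05, and Pcsk1 also with every gene of a total over 1. The edgeR adjusted p was highest without the chow-fed libraries 33 for Pcsk1 (0.990) and 34 for Adcy5 (0.906). DESeq2 and voom kept the calls of Pcsk1 (higher) and Adcy5 (lower) and also called Mme lower on HFD (log2 fold change -2.75, SE 0.94, adjusted p = 0.316 by edgeR). In this ARC comparison voom alone also called Crtc1, a coactivator of CREB, lower (-0.67, SE 0.26, adjusted p = 0.425 by edgeR). DESeq2 alone called Crtc1 lower in HFD against chow in the Nnat+/+ PVN. It alone also called Adcy8, an adenylyl cyclase, higher in non-obese Nnat+/-p against Nnat+/+ females. Of the 14 other class B1 receptors (9 to 11 tested), edgeR called 0 in all 13 comparisons. There, 0 or 1 of them had an unadjusted p under 0.05 in each comparison, voom called 0 and DESeq2 called 1, Calcr, higher on HFD in the Nnat+/+ ARC. In the chow-fed male PVN comparison of obese Nnat+/-p against Nnat+/+, edgeR called 0 of the members of the 3 lists, and 1 of them, in cyclic AMP signalling, had an unadjusted p under 0.05. The lists' median log2 fold changes there were -0.05, -0.00 and -0.16, beside -0.01 over all 15618 genes tested. In the comparison of obese with non-obese Nnat+/-p males, 0% of genes were called by edgeR, with 260 at an unadjusted p under 0.05 and 1 called by DESeq2. DESeq2 and voom called 0 of the members there too.

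The genes whose log2 CPM, here scaled by TMM factors, followed that of Glp1r most closely over the 19 male PVN libraries were Unc50 (Pearson r = 0.91), Lysmd3 (0.88), Zfx (0.82), S100a10 (0.82), Rexo4 (0.77), Il4ra (0.77), Nrip3 (0.77), Rab3gap1 (0.77), Afg3l1 (0.76) and Pgrmc2 (0.76), among 17575 other genes. Over all of these genes the median r was -0.01, and 5% of them were above 0.45. The libraries share their groups, their depths and the low values of the chow-fed Nnat+/+ mice, so these values are a description. Zfx is an X-linked zinc finger transcription factor, S100a10 a partner of annexin A2, Il4ra the receptor chain of interleukins 4 and 13, and Rab3gap1 a subunit of the Rab3 GTPase-activating protein. At the other end were Kcne1 (r = -0.86), a potassium channel subunit, Dlgap2 (-0.80), a postsynaptic scaffold protein, Meig1 (-0.77), Cryz (-0.77) and Rubcnl (-0.75).

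**Figure D5:**
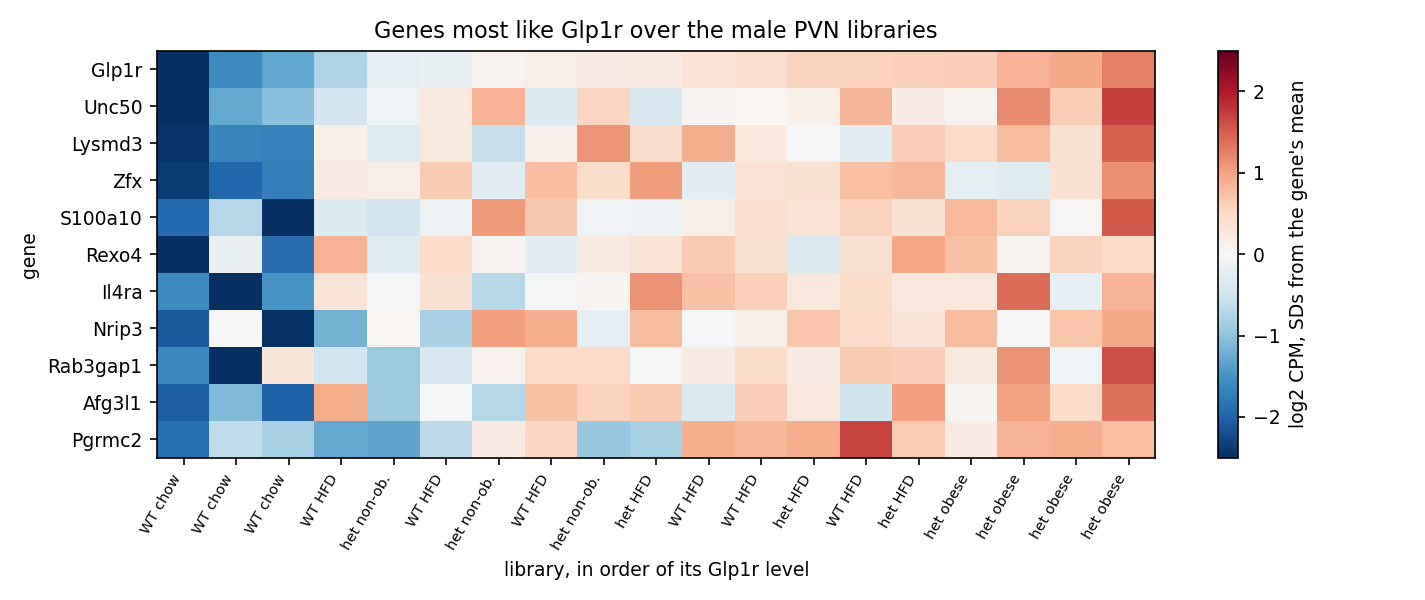
Glp1r and the 10 genes most like it (vertical axis) in the 19 male PVN libraries, in order of their TMM-scaled Glp1r level (horizontal axis). Colour gives log2 CPM after TMM scaling, in SDs from each gene's mean. The 3 chow-fed Nnat+/+ libraries are at the left and low for most of the 10 genes, and the 4 obese Nnat+/-p libraries are at the right on this scale, while in unscaled CPM obese library 20 (12.9) lies below HFD-fed libraries 26 (16.0), 29 (14.4) and 30 (13.7).

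Which genes were most alike depended on the libraries taken. Without library 14, which had 1 count of Glp1r, the 10 genes had a median r of 0.73 and 2 of them stayed among the 10 most alike, and by Spearman's rank correlation 0 did. After removal of the group means 2 stayed, Unc50 (r = 0.81) and Pgrmc2 (0.79), while Il4ra and Afg3l1 fell to -0.05 and 0.04. In the 9 HFD-fed libraries 0 stayed. Pgrmc2, a progesterone receptor membrane component that carries heme, followed Glp1r in each of these subsets, with r = 0.81 in the 10 chow-fed and 0.84 in the 9 HFD-fed male libraries. In the female PVN, which the ranking did not use, all 10 genes had r above 0 (median 0.64, beside 0.22 over all genes), and Pgrmc2 (0.84) and S100a10 (0.81) were highest. The female libraries share their differences in depth and in PVN marker sums. In the ARC the median r of the 10 genes was 0.22, beside 0.05 over all genes.

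Of the genes around the receptor, Pcsk1 (r = 0.40), Calcrl (0.37) and Calcr (0.32) followed Glp1r weakly over the male PVN libraries, and Crhr2 (-0.56) and Pth1r (-0.48) ran against it. In the female PVN the same genes had r of 0.77, 0.76, 0.30, 0.69 and -0.04, so Crhr2 ran the other way there. The 22 genes of cyclic AMP signalling had a median r of -0.08 in the male and 0.52 in the female PVN, where the median over all genes was 0.22. All 8 PVN neuron markers had r above 0 (median 0.34), and so had all 5 vascular markers (median 0.35). Without libraries 15 and 24, which had low PVN markers, Oxt (-0.13), Nr3c1 (-0.08) and Crh (-0.07) fell below 0. The other PVN markers then lay between 0.06 (Mc4r) and 0.34 (Sim1). Of the vascular markers Cldn5 (-0.14) fell below 0, and the others lay between 0.09 (Pdgfrb) and 0.75 (Pecam1). Of the 4 forebrain excitatory neuron markers kept all had r below 0 (median -0.53). The kept ventromedial, lateral hypothalamus, suprachiasmatic, microglia and ependymal markers were all below 0 too. Within groups the medians of the PVN neuron, vascular and forebrain lists were 0.11, 0.35 and -0.23. In the female PVN they were 0.52, -0.43 and 0.02. The ventromedial, lateral hypothalamus, suprachiasmatic, microglia and ependymal lists had medians of 0.03, -0.21, 0.23, -0.04 and -0.12 within groups. In the female PVN those 5 medians were 0.40, -0.03, 0.41, 0.49 and -0.06, so several of these signs did not hold there.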

How the data were processed

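RNA from laser-captured PVN and ARC was made into stranded total RNA libraries of low input and read as single-end reads. The deposited tables hold whole-number counts of reads per gene without normalization, which the authors made. The submitters' processing notes name STAR 2.5.0a and GRCm38. The counting tool, the annotation release and the strand setting are not given in the sources used here. Of 53 libraries, 49 were used. Replicates 5, 7 and 35 were left out for low totals, and replicate 32 because its label names the ARC and its table is of the PVN. Gene symbols were matched for 53274 identifiers.

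Within each table, a model was fitted to the counts with edgeR 4.0.16 in R 4.3.3 (filterByExpr with a minimum count of 10, TMM factors, quasi-likelihood test). The chow-fed subgroups shared a fit, and for HFD every male group of that nucleus entered. Benjamini-Hochberg adjustment ran over all genes tested, and calls were made at an adjusted p under 0.25. Likeness is Pearson's r of log2 CPM (prior count 2). Alternatives used DESeq2 1.42.0 and limma 3.58.1 (voom), among other settings. The fits were tested on simulated data. Named genes were Glp1r, the members of the incretin and class B1 lists, called members of cyclic AMP signalling, the 10 genes most like Glp1r and the 5 least like it, Nnat, and markers that moved with Glp1r. The gene, the lists and the comparisons were chosen with earlier results of these data known. Totals of 1479953 to 30228973 counts and 1 to 1362 counts of Glp1r set the precision.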

Additional observations from a re-analysis of the deposited data

How the results depend on the processing

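Over all alternatives and left-out libraries run for the 13 comparisons of Glp1r, 180 of 193 fits kept the direction and the side of the threshold or, where untested, moved by less than 1 SE. No paired analysis was possible because every test compared groups of different genotype, weight class or diet within 1 nucleus. Replicate numbers, 1 to 53, are shared by no groups. Within a group the labels do not number the mice, and each library was counted as 1 replicate. Libraries that share a labelled weight, such as 39 and 40, may come from 1 mouse. The PVN and ARC of matched mice were set side by side without a test. Log2 fold changes are given. Against Nnat+/+, obese females gave 0.58 to 1.38 with each library left out, non-obese females -0.25 (without library 9) to 0.96, and obese against non-obese females 0.03 to 1.20. In the chow-fed male PVN the ranges were 3.42 to 4.58 for obese and 2.19 to 3.33 for non-obese Nnat+/-p against Nnat+/+, the highest without library 15, and 1.08 to 1.40 between them. With voom these were 4.73 and 3.58 for the first 2, and 3.78 for HFD against chow in the Nnat+/+ PVN. That diet change was 2.41 to 3.56 with each library left out, highest without library 15, and 3.72 without libraries 15 and 24, a choice made after seeing the data. In the HFD-fed PVN the genotype change was 0.21 to 0.53, and 0.10 without the libraries of conflicting weights (24, 30, 44 and 51). In the chow-fed ARC it was 0.37 to 1.58 for obese, 0.44 to 1.50 for non-obese, and for obese against non-obese -0.51 (without library 36), -0.34 (without library 40) to 0.47, with 0.95, 0.94 and 0.02 when libraries 39 and 40 were summed. In the HFD-fed ARC it was -0.28 to 0.30 and turned positive without library 46, 49 or 50, and by voom, 0.37, and was -0.47 without the libraries of conflicting weights. HFD against chow in the Nnat+/+ ARC gave 1.73 to 2.76, and 2.17, past the threshold, with only these groups fitted. Group levels moved by less than 1 SD under TMM scaling and medians. Of the 10 genes most like Glp1r, 0 stayed by Spearman's correlation, 2 after removal of group means, 4 in chow-fed and 0 in HFD-fed libraries, 5 without library 15, 5 without 15 and 24, and 2 without library 14. The last 2 of these and the HFD-fed set, like the depth covariate in females, were chosen after seeing the data.

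Genes called depended on the settings more than Glp1r did, and the cause was not tested. For obese against Nnat+/+ females they were 2 by edgeR, 174 by DESeq2, 107 with every gene of a total over 1, 9 by voom and 936 with all labelled libraries. For non-obese against Nnat+/+ females they were 1, 264, 235, 3 and 6, and for obese against non-obese females 0, 71, 229, 0 and 622. For the chow-fed male PVN, obese and non-obese against Nnat+/+ and against each other, edgeR called 4, 2 and 0, DESeq2 38, 3 and 1, and the wider gene set 43, 18 and 6. For HFD against chow in Nnat+/+ they were 251, 472 and 1134 in the PVN, with 82 to 1083 when 1 library was left out and 26 at an adjusted p under 0.05, and 182, 358 and 547 in the ARC, with 3 to 253 and 5, and 44 without the libraries of conflicting weights. The HFD-fed genotype comparisons gave 1, 1 and 8 in the PVN and 2, 1 and 64 in the ARC, and the chow-fed ARC 3, 3 and 25, 2, 2 and 10, and 1, 1 and 14. With 1 Nnat+/+ ARC library left on chow, it was assumed to vary like the other groups. Glp1r counts of 1 to 12 in the chow-fed Nnat+/+ males of both nuclei limit how well any change against them is measured.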

Other observations

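Labelled weights tie 2 HFD-fed PVN libraries to ARC libraries of the other genotype. The PVN library 24 (Nnat+/+, 42.9 g) had 3.58 CPM of Glp1r and the ARC library 51 (Nnat+/-p, 42.9 g) had 7.40 CPM. The PVN library 30 (Nnat+/-p, 43.9 g) had 13.7 CPM and the ARC library 44 (Nnat+/+, 43.9 g) had 1.39 CPM. These libraries were left out of the 15 pairs. The ARC libraries 39 and 40 carry 1 labelled weight, 34.3 g, and had 2.70 and 0.158 CPM. The female Nnat+/+ PVN libraries 1 and 2 also carry 1 labelled weight, 24.1 g, and had 21.3 and 3.22 CPM. The labels do not say whether libraries 1 and 2 are of 1 mouse.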
